A study of Mus musculus with 22 samples.

Results

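Cytochrome P450 genes of the families that handle drugs, steroids and fatty acids were described in mouse livers. Members were all gene symbols of the deposited table that begin with Cyp1, Cyp2, Cyp3 or Cyp4 followed by a letter, without Cyp2e1, Cyp1a2, Cyp2f2, Cyp2s1, Cyp4a10, Cyp4a14 and Cyp4a31. This gave 70 genes of the 18716 rows in the table. Of the 70, 54 reached 0.5 RPKM in at least 7 libraries and were tested. RPKM are read numbers scaled by transcript length and by the mapped reads of the library. The 22 livers came from mice labelled Fah-/-, whose Fah gene, needed to finish the breakdown of tyrosine, is disrupted. For the 7 YC and the 8 vehicle livers, mice were transplanted with td-Hepatocytes, NTBC, a drug that protects mice without Fah, was withdrawn, and treatment with an agent labelled YC or with vehicle then ran for 28 days. The 7 D0 livers carry the label of a normal liver at day 0. The ages, the sexes, the origin of the transplanted cells and the share of host hepatocytes still present are not given in the labels, and nor is it stated that libraries stem from different animals. P-values therefore rest on the spread between libraries, which may be technical. Means are given ± SD over the 7 YC, 8 vehicle or 7 D0 livers, and log2 fold changes ± SE.

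Microsomal P450 enzymes are heme proteins of the endoplasmic reticulum that insert an oxygen atom into lipophilic substrates, with electrons passed on from the reductase Por. Members of the Cyp1, Cyp2 and Cyp3 families carry out the first step of drug and steroid breakdown in hepatocytes, and many of their genes are switched on by the receptors AhR, CAR and PXR. Members of the Cyp4 family mostly oxidize the ends of fatty acid chains. In mice, several of these genes are expressed in 1 sex alone under the control of growth hormone.

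Depth estimated from the steps of low values lay between 50000000 and 83100000 reads or fragments per library. In some libraries a different depth fitted the steps nearly as well (D0 3, scores of 0.4154 and 0.3985), so these depths are approximate. Fah had 31.5 to 407 RPKM in YC livers (median 128), 271 to 542 RPKM in vehicle livers (median 401) and 21.1 to 38.7 RPKM in D0 livers (median 28.6). YC 6 and YC 7 held 41.3 and 31.5 RPKM of it, near or within the D0 range, and YC 4 held the most among YC livers. Which part of Fah the reads cover is unknown, so this level is no check of the genotype label. The summed RPKM of 4 Y-linked genes (Ddx3y, Eif2s3y, Kdm5d, Uty) reached 1 in 3 of 7 YC livers (YC 1 to YC 3), in 8 of 8 vehicle livers and in 0 of 7 D0 livers. The summed level of 7 hepatocyte markers, Alb and Apoa1 among them, was 33244 to 64431 RPKM in YC livers, 61505 to 95124 RPKM in vehicle livers and 51495 to 69953 RPKM in D0 livers. Over all genes tested the median log2 fold change of YC minus vehicle was 0.31 with RPKM as deposited and 0.01 after median-ratio scaling, so changes in that comparison are to be read relative to this shift.

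Members spanned a wide range of levels. Averaged over the 22 libraries, 15 of the 70 members had at least 100 RPKM, and 16 had under 0.5 RPKM. The 10 most abundant members held 85.3% of the summed member RPKM. They were Cyp2a5 (a mean of 4669 RPKM), Cyp3a11 (1648 RPKM), Cyp2a4 (1546 RPKM), Cyp2c29 (504 RPKM), Cyp2d26 (421 RPKM), Cyp2d10 (385 RPKM), Cyp3a25 (355 RPKM), Cyp2c70 (341 RPKM), Cyp2a12 (320 RPKM) and Cyp2c37 (235 RPKM). Cyp2a5 alone made up 38.2% of the member total and ranked 11 among all genes of the table. The 16 members that did not reach the limit were Cyp2ab1, Cyp2b19, Cyp2b23, Cyp2c65, Cyp2c66, Cyp2d12, Cyp2d34, Cyp2j8, Cyp2j11, Cyp2j13, Cyp2t4, Cyp2w1, Cyp3a57, Cyp4a30b, Cyp4f37 and Cyp4f40.

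YC livers were compared with vehicle livers, both transplanted and both at 28 days, to see how the P450 set differed with the agent. Cyp1a1 and the pair Cyp2a4 and Cyp2a5 rose, while the Cyp2c epoxygenases Cyp2c54, Cyp2c50, Cyp2c44 and Cyp2c37 fell furthest, together with Cyp4f14 and Cyp2j5. Of the 54 tested members, 12 rose (22.2%) and 18 fell (33.3%), at a limma adjusted p under 0.05. Over all 12537 genes tested, 44.6% were called higher and 6.14% lower. The median log2 fold change was -0.22 over the tested members and 0.31 over all genes. With median-ratio scaling 7 members were called higher and 22 lower, beside 18.2% and 16.7% of all genes, and the medians were -0.55 and 0.01. A fall was the more frequent direction among members under both scalings, whereas among all genes it was the less frequent one under both. The 18 members that fell as deposited were all called lower after scaling, and Cyp2b9, Cyp2d10, Cyp4b1 and Cyp4f13 joined them. Cyp2c39, Cyp2d9, Cyp2u1, Cyp3a25 and Cyp4a32 were no longer called higher. Y-linked transcripts were present in 3 of 7 YC and 8 of 8 vehicle livers, so agent and sex of the cells are partly confounded. With their presence as a covariate, 10 members were called higher and 17 lower, beside 4724 and 715 of all 12537 genes. Cyp2c39, Cyp2u1, Cyp3a25 and Cyp4f15 were then not called, and Cyp4f17 was called higher.

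**Figure D1:**
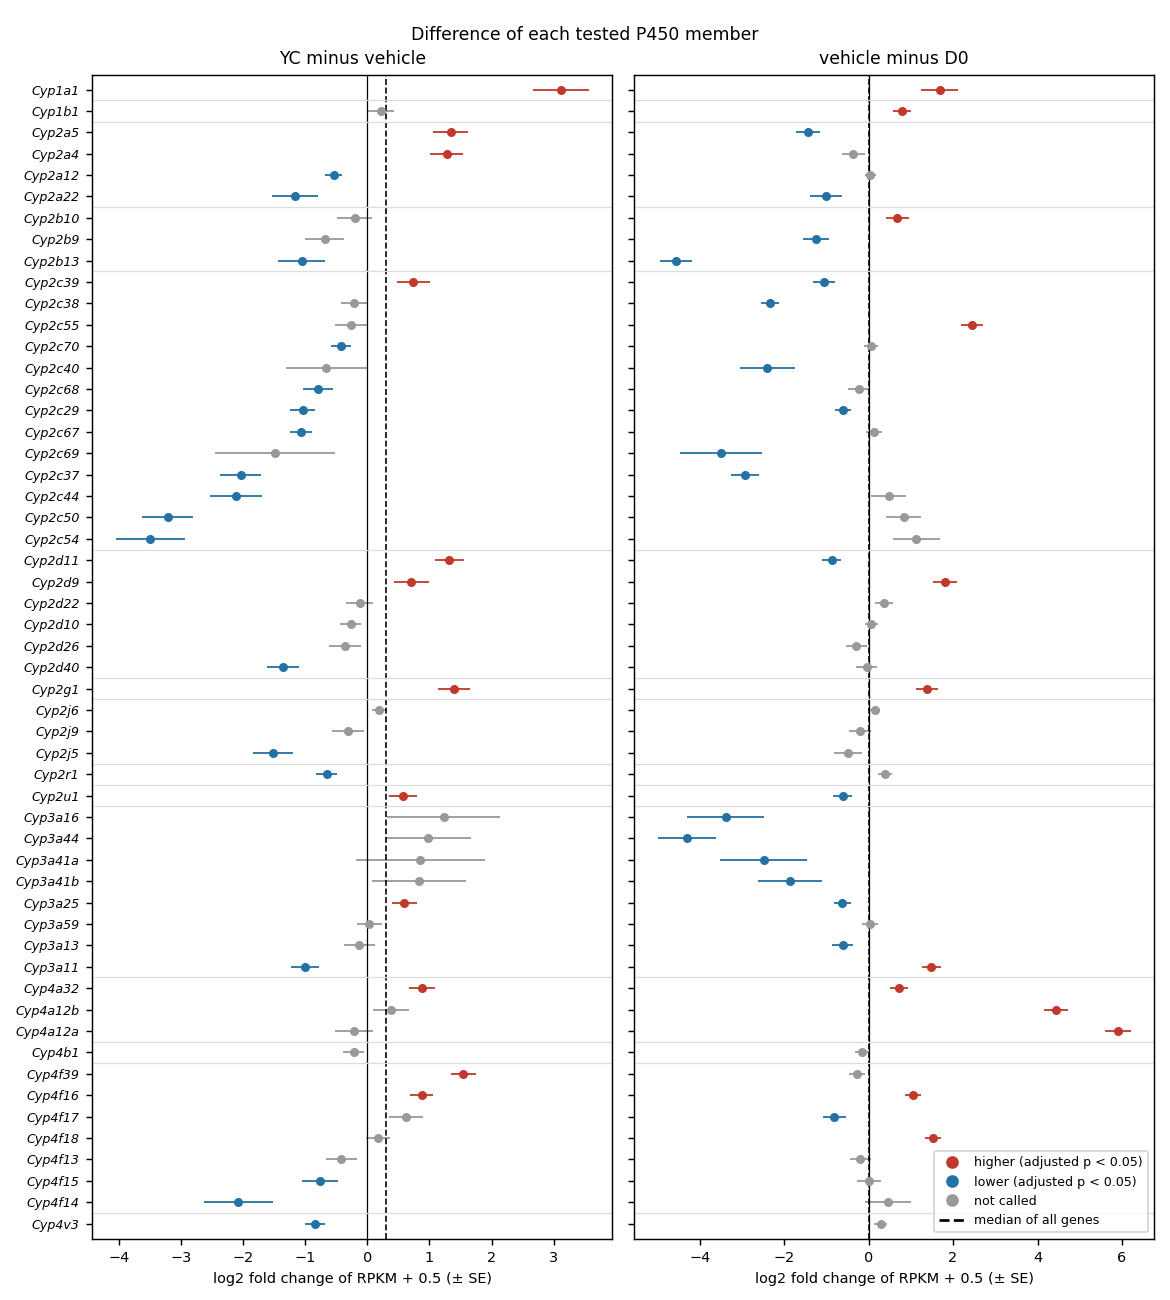
Log2 fold change of RPKM + 0.5 for each of the 54 tested P450 members (points, with standard errors as bars), ordered by subfamily from top to bottom, for YC minus vehicle on the left and vehicle minus D0 on the right. Colours give the limma call at an adjusted p under 0.05, and the dashed line is the median of all 12537 genes. On the left, 8 of 13 Cyp2c members are called lower, beside 6.14% of all genes, and Cyp1a1 stands furthest to the right at 3.12. On the right, Cyp4a12a and Cyp4a12b stand furthest to the right at 5.90 and 4.44.

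Cyp1a1, which oxidizes polycyclic aromatic hydrocarbons and is the classical target gene of the aryl hydrocarbon receptor, showed the largest rise. Its level was 32.6 to 171 RPKM in YC livers (median 85.8), 1.497 to 22.9 RPKM in vehicle livers (median 13.1) and 1.95 to 3.45 RPKM in D0 livers (median 2.65). Every YC liver lay above every vehicle liver, with YC 6 and YC 7 highest and YC 4 lowest. The log2 fold change was 3.12 ± 0.45 (limma adjusted p = 1.15e-05), or 3.05 among livers with Y-linked transcripts alone (3 YC and 8 vehicle livers). Vehicle livers were uneven, with vehicle 4 and vehicle 8 at 2.49 and 1.497 RPKM, in or below the D0 range. Cyp1b1, the other receptor target of the Cyp1 family, was low throughout and was not called, with 1.31 ± 0.605 RPKM in YC and 1.04 ± 0.55 RPKM in vehicle livers.

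The receptor core GCGTG occurred once in the 250 bases before the RefSeq start of Cyp1a1 on chromosome 9. The GENCODE gene begins further upstream, at 57687928, though one of its transcripts begins at the RefSeq start. The 120 bases nearest to that start (GRCm38.p6, chr9:57697493-57697612, plus strand) are shown because Cyp1a1 had the largest rise, with GCGTG and the TATA letters TATAAA in capitals.
Cyp1a1: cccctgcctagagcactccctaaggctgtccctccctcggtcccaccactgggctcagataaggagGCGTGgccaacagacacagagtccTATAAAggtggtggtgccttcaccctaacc
On either strand, GCGTG was found in 12 of the 60 members listed in RefSeq's promoter table and in 30.9% of all 27025 genes there. TATAAA was found in 24 of the 60 members and in 14.3% of all genes.

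All 4 Cyp2a members changed, 2 in each direction, beside 44.6% of all genes higher and 6.14% lower. Cyp2a5, which hydroxylates coumarin and nicotine, and Cyp2a4, which hydroxylates testosterone, both rose, whereas Cyp2a12 and Cyp2a22 fell. Cyp2a5 had 2436 to 8090 RPKM in YC livers (median 7019), 1022 to 4507 RPKM in vehicle livers (median 2133) and 4789 to 7204 RPKM in D0 livers (median 5576). YC 4 and YC 5, at 2436 and 4056 RPKM, were the only YC livers within the vehicle range, and the log2 fold change was 1.35 ± 0.28 (limma adjusted p = 0.000452). Cyp2a4 had 817 to 4487 RPKM in YC livers (median 2588), 688 to 1197 RPKM in vehicle livers (median 933) and 878 to 1441 RPKM in D0 livers (median 1186). YC 4 alone lay within the vehicle range, and the log2 fold change was 1.28 ± 0.27 (adjusted p = 0.000441). YC 6 held the most of both transcripts, and YC 4 the least among YC livers.

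Cyp2a4 and Cyp2a5 lie on chromosome 7 (mm10, plus strand, 26307169 to 26315088 and 26835305 to 26843548) with 94.8% identical coding sequence. Their starts are alike too, with 97.6% identity over the 250 bases before the RefSeq starts. The 120 bases nearest to each start are shown because the pair rose together, at chr7:26307072-26307191 and chr7:26835219-26835338 of GRCm38.p6. The RefSeq starts lie downstream of the gene starts given above, which are from GENCODE, so the last printed bases fall inside the GENCODE genes. Capitals mark bases with no identical partner in the alignment of the 250 bases. The stretches are offset by 1 base, which makes the last base of Cyp2a5 a capital. The partner of the first base of Cyp2a4, if it has one, is not printed.
Cyp2a4: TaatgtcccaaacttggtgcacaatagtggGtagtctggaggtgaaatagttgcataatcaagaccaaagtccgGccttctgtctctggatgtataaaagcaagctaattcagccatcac
Cyp2a5: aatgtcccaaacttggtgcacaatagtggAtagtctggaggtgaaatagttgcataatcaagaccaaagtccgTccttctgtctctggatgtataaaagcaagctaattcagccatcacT
Of the 100-base windows of the Cyp2a4 transcript, 11.2% also occur in another P450 gene, and 14.4% of those of Cyp2a5, so part of their reads may have been divided between the copies.

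Cyp2a12, which hydroxylates steroids and bile acids, had 191 to 327 RPKM in YC livers (median 245) and 297 to 439 RPKM in vehicle livers (median 362). YC 4 alone lay within the vehicle range, and the log2 fold change was -0.54 ± 0.13 (limma adjusted p = 0.00174). Cyp2a22, a female-biased gene, had 4.46 to 17.0 RPKM in YC livers (median 7.27) and 4.43 to 48.9 RPKM in vehicle livers (median 22.2), for a log2 fold change of -1.16 ± 0.37 (adjusted p = 0.0128). Every YC liver overlapped the vehicle range, which reached down through vehicle 5, vehicle 6 and vehicle 7 at 4.43, 8.81 and 9.92 RPKM.

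**Figure D2:**
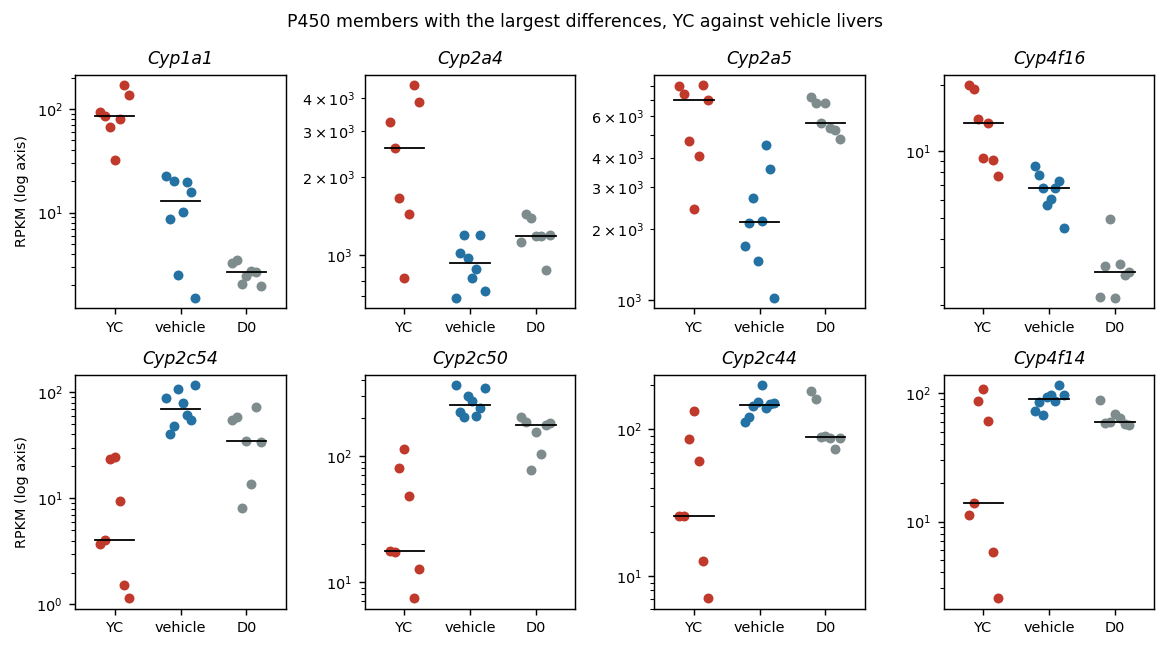
RPKM on a log axis for 8 P450 members in each liver (points) with the group median (line), YC livers on the left, vehicle livers in the middle and D0 livers on the right of each panel. The upper panels show members that rose in YC livers, led by Cyp1a1 with a median of 85.8 RPKM against 13.1 RPKM in vehicle livers. The lower panels show members that fell, where YC livers spread most widely, for Cyp4f14 between 2.52 and 108 RPKM.

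Most of the Cyp2c subfamily fell, with 8 of 13 tested members lower, 1 higher and a median log2 fold change of -1.04. Of all genes tested, 6.14% were lower and 44.6% higher, with a median of 0.31. After median-ratio scaling those shares were 16.7% and 18.2%. The Cyp2c members lie on mouse chromosome 19, and several oxidize arachidonic acid to epoxides. Cyp2c54 had 1.15 to 24.4 RPKM in YC livers (median 4.09), 40.1 to 116 RPKM in vehicle livers (median 70.1) and 8.15 to 72.6 RPKM in D0 livers (median 35.0). No YC liver reached the lowest vehicle liver, and the log2 fold change was -3.49 ± 0.56 (limma adjusted p = 4.26e-05). Cyp2c50, beside it in the cluster, had 7.42 to 113 RPKM in YC livers (median 17.6), 203 to 363 RPKM in vehicle livers (median 255) and 77.6 to 205 RPKM in D0 livers (median 178). The groups again did not overlap, and the log2 fold change was -3.21 ± 0.42 (adjusted p = 3.50e-06). Cyp2c67 was the third member below the whole vehicle range in every YC liver, with 12.0 to 23.7 RPKM in YC livers and 26.6 to 59.0 RPKM in vehicle livers, and is named here after its values were seen. Such separation downward held for 3 of the 54 members and for 0.558% of all genes, and upward for 2 members (Cyp1a1 and Cyp4f39) and 6.52% of all genes.

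Cyp2c44, an arachidonic acid epoxygenase, had 7.06 to 132 RPKM in YC livers (median 25.7) and 112 to 199 RPKM in vehicle livers (median 146). YC 4 at 132 RPKM was the only YC liver within the vehicle range, YC 6 and YC 7 were lowest at 12.7 and 7.06 RPKM, and the log2 fold change was -2.11 ± 0.42 (limma adjusted p = 0.000308). Without YC 6 and YC 7 it was -1.41 (adjusted p = 0.000973), while that of Cyp2c54 was -2.78 and that of Cyp2c50 -2.63. Cyp2c37 had 9.61 to 46.7 RPKM in YC livers (median 16.7), 28.7 to 150 RPKM in vehicle livers (median 92.3) and 449 to 853 RPKM in D0 livers (median 609). YC 4 and YC 5 overlapped the lowest vehicle liver, and the log2 fold change was -2.04 ± 0.33 (adjusted p = 3.33e-05). Cyp2c29, the most abundant Cyp2c member, had 139 to 411 RPKM in YC livers (median 234) and 351 to 771 RPKM in vehicle livers (median 475). YC 4 alone overlapped the vehicle range, and the log2 fold change was -1.04 ± 0.20 (adjusted p = 0.000188).

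Cyp2c70, which makes the muricholic bile acids of mice, changed little by comparison, with 188 to 368 RPKM in YC livers (median 279) and 304 to 564 RPKM in vehicle livers (median 335). Its log2 fold change of -0.42 ± 0.16 (limma adjusted p = 0.0338) was not called when any of vehicle 1, vehicle 8, YC 1 or YC 2 was left out (adjusted p up to 0.0950). Cyp2c55, a target of CAR that is best known from the intestine, was not called and had 17.6 ± 8.07 RPKM in YC and 21.3 ± 9.63 RPKM in vehicle livers. Cyp2c40 and Cyp2c69 were not called either, at -0.66 ± 0.65 and -1.49 ± 0.97, and vehicle livers themselves ranged from 4.07 to 239 RPKM and from 1.13 to 340 RPKM of them. Without vehicle 5, vehicle 6 and vehicle 7, which were left out after their low levels had been seen, both were called lower at -1.92 (adjusted p = 0.00122) and -3.18 (adjusted p = 0.00338). Leaving out the lowest vehicle livers enlarges such a fall by itself, so these calls are no test.

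The 9-letter motif CAAAGTCCA, a form of the site read by the hepatocyte factor HNF4A, was found in the 250 bases before the start of 10 of 60 members (16.7%) and of 0.451% of all genes, searched on both strands. Stretches around it are shown for the 5 tested Cyp2c members that hold it and for Cyp3a11, to set the Cyp2c cluster beside an abundant Cyp3a member, with the motif in capitals and 20 bases on each side (GRCm38.p6, minus strand).
Cyp2c40: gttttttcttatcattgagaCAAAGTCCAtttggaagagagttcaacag
Cyp2c67: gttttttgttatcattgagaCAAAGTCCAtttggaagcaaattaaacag
Cyp2c68: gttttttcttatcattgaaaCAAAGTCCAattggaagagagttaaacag
Cyp2c69: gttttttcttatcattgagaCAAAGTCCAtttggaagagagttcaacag
Cyp2c70: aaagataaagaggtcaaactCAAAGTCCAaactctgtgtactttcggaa
Cyp3a11: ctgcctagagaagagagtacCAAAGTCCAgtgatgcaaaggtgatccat
They lie at chr19:39812831-39812879 (Cyp2c40), chr19:39649139-39649187 (Cyp2c67), chr19:39741150-39741198 (Cyp2c68), chr19:39886816-39886864 (Cyp2c69), chr19:40187322-40187370 (Cyp2c70) and chr5:145879935-145879983 (Cyp3a11). In GENCODE the Cyp3a11 gene reaches up to 145879964, so there its motif falls just inside the gene. The printed stretches of Cyp2c40 and Cyp2c69 are the same letter for letter, and their coding sequences are 97.9% identical. Those of Cyp2c67 and Cyp2c68 differ from them in a few letters. The stretches around the motif in Cyp3a16, Cyp3a41a and Cyp3a41b are also the same. The 10 members with the motif are therefore partly copies and not 10 separate cases. Cyp2c50 and Cyp2c37, which fell further, did not hold these letters in that window. Of the 9 tested members that hold the motif, 4 fell in YC livers (Cyp2c67, Cyp2c68, Cyp2c70 and Cyp3a11) and 5 were not called, Cyp2c40, Cyp2c69 and, with positive values, Cyp3a16 (1.23), Cyp3a41a (0.85) and Cyp3a41b (0.83). A match describes the letters alone and is no evidence of binding.

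Among Cyp2d members 2 rose, 1 fell and 3 were not called, beside 44.6% of all genes higher and 6.14% lower. Cyp2d9, the male-biased testosterone hydroxylase, had 99.2 to 413 RPKM in YC livers (median 180), 79.1 to 206 RPKM in vehicle livers (median 115) and 24.0 to 53.9 RPKM in D0 livers (median 34.6). YC 1, YC 2 and YC 3, the YC livers with Y-linked transcripts, lay above all vehicle livers at 413, 378 and 218 RPKM, and the log2 fold change was 0.71 ± 0.28 (limma adjusted p = 0.0384). Among livers with Y-linked transcripts alone it was 1.42 (adjusted p = 0.00351), with median-ratio scaling it was 0.36 and not called, and leaving out any of vehicle 1, vehicle 2, vehicle 4, vehicle 8, YC 1, YC 2 or YC 3 ended the call (adjusted p up to 0.112). The abundant Cyp2d26 had 352 ± 152 RPKM in YC and 411 ± 88.1 RPKM in vehicle livers, and Cyp2d10 had 341 ± 55.5 and 416 ± 95.0 RPKM in the same order. Neither was called, at -0.36 ± 0.26 and -0.27 ± 0.16, and Cyp2d26 stood lowest in YC 6 and YC 7 at 166 and 115 RPKM.

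In the small subfamilies, Cyp2j5, an epoxygenase of liver and kidney, had 14.5 to 93.3 RPKM in YC livers (median 18.4), 61.8 to 132 RPKM in vehicle livers (median 84.0) and 101 to 148 RPKM in D0 livers (median 136). YC 3 and YC 4 overlapped the vehicle range, and the log2 fold change was -1.52 ± 0.33 (limma adjusted p = 0.000570), or -1.13 without YC 6 and YC 7. Cyp2g1, best known as an enzyme of the olfactory lining, had 4.10 to 18.1 RPKM in YC livers (median 9.07), 2.06 to 5.02 RPKM in vehicle livers (median 2.98) and 0.287 to 1.61 RPKM in D0 livers (median 0.883). YC 6 alone lay within the vehicle range, and the log2 fold change was 1.39 ± 0.26 (adjusted p = 0.000147). Among livers with Y-linked transcripts alone it was 2.08. Of the 3 tested Cyp2b members, Cyp2b13 was called lower at -1.06 ± 0.38 (adjusted p = 0.0244), at levels of only 0.900 ± 0.851 RPKM in YC and 2.79 ± 2.37 RPKM in vehicle livers. That call ended when vehicle 4, vehicle 8, YC 1 or YC 2 was left out (adjusted p up to 0.0585), and without YC 6 and YC 7 together (adjusted p = 0.0855). Cyp2b10, the phenobarbital-inducible target of CAR, was not called, with 32.9 ± 14.1 RPKM in YC and 37.6 ± 13.0 RPKM in vehicle livers. Cyp2b9 was not called at -0.69 ± 0.32 (adjusted p = 0.0726), and was called when vehicle 1, vehicle 5 or YC 4 was left out (adjusted p down to 0.00969) and with median-ratio scaling (-1.03).

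Of the 8 tested Cyp3a members, which lie on chromosome 5, 1 rose, 1 fell and 6 were not called. Of all genes, 44.6% were higher and 6.14% lower. Cyp3a11, the main hepatic Cyp3a enzyme of mice and a target of PXR, had 750 to 2134 RPKM in YC livers (median 1268), 1912 to 4036 RPKM in vehicle livers (median 2403) and 608 to 1062 RPKM in D0 livers (median 942). YC 4 alone overlapped the vehicle range, YC 1, YC 2 and YC 6 lay within the D0 range, and the log2 fold change was -0.999 ± 0.22 (limma adjusted p = 0.000797). Cyp3a25 had 244 to 793 RPKM in YC livers (median 348) and 207 to 386 RPKM in vehicle livers (median 245), with YC 1, YC 6 and YC 7 above all vehicle livers. Its log2 fold change of 0.59 ± 0.20 (adjusted p = 0.0188) was not called with median-ratio scaling (0.25), among livers with Y-linked transcripts alone (0.51) without YC 6 and YC 7 (0.31) or without vehicle 5, vehicle 6 and vehicle 7 (0.57, adjusted p = 0.0676). Cyp3a13 had -0.13 ± 0.25 and was not called, with YC 6 and YC 7 below all vehicle livers at 22.7 and 32.3 RPKM.

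Of 7 tested Cyp4f members 2 rose (Cyp4f16 and Cyp4f39), 2 fell (Cyp4f14 and Cyp4f15) and 3 were not called. Of 3 tested Cyp4a members 1 rose (Cyp4a32) and 2 were not called, while Cyp4v3 fell and Cyp4b1 was not called. Beside them, 44.6% of all genes were higher and 6.14% lower. Cyp4f14, which inactivates leukotrienes and vitamin E, had 2.52 to 108 RPKM in YC livers (median 14.0), 68.3 to 115 RPKM in vehicle livers (median 90.8) and 57.1 to 88.9 RPKM in D0 livers (median 59.5). YC livers fell apart on this gene, with YC 3 and YC 4 inside the vehicle range at 87.1 and 108 RPKM and YC 6 and YC 7 at 5.80 and 2.52 RPKM. The log2 fold change was -2.07 ± 0.55 (limma adjusted p = 0.00384), and -1.16 (adjusted p = 0.0187) without YC 6 and YC 7. Cyp4f16 had 7.69 to 19.9 RPKM in YC livers (median 13.4), 4.49 to 8.59 RPKM in vehicle livers (median 6.81) and 2.17 to 4.95 RPKM in D0 livers (median 2.83). YC 7 alone overlapped the vehicle range, and the log2 fold change was 0.87 ± 0.19 (adjusted p = 0.000638). Cyp4a32, 97.2% identical to Cyp4a10 in its coding sequence, had 18.5 to 50.8 RPKM in YC livers (median 24.9) and 12.4 to 20.1 RPKM in vehicle livers (median 15.0), with YC 4 and YC 6 inside the vehicle range. Its log2 fold change was 0.88 ± 0.21 (adjusted p = 0.00148), and 0.53 and not called with median-ratio scaling (adjusted p = 0.0511). Cyp4f39, known as a ceramide hydroxylase of mouse skin and named here after its values were seen, was above all vehicle livers in every YC liver, with 1.84 to 4.43 RPKM in YC livers and 0.364 to 1.39 RPKM in vehicle livers. Cyp4v3, a fatty acid hydroxylase, and Cyp4f15 are also named after their values were seen. Cyp4v3 had a log2 difference of -0.84 ± 0.16 (adjusted p = 0.000139), with YC 4 alone inside the vehicle range. Cyp4f15 lay above all vehicle livers in YC 3 and YC 4, at 68.6 and 70.9 RPKM, and below them all in 4 of 7 YC livers. Its log2 difference was -0.77 ± 0.29 (adjusted p = 0.0300), a call that ended without vehicle 4, YC 1, YC 6 or YC 7 (adjusted p up to 0.0821). It also ended with the presence of Y-linked transcripts as a covariate (-0.49, adjusted p = 0.294).

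YC livers differed among themselves in a way that ran through the fallen members. YC 4 held the highest level among YC livers for 17 of the 18 fallen members (94.4%), for 27 of the 54 tested members and for 8.89% of all genes. YC 6 or YC 7 held the lowest level for 12 of the 18 fallen members (66.7%) and for 35.4% of all genes. YC 4 also held the lowest level for 6 of the 12 members that rose and for 42.3% of all genes. These counts were made after the values had been seen. The same shares were not counted among all genes called lower, so the pattern is not shown to be particular to P450 members. Beside them, Fah was 407 RPKM in YC 4 and 41.3 and 31.5 RPKM in YC 6 and YC 7, and the hepatocyte marker list had 1 of 7 genes higher and 3 lower in YC than in vehicle livers. Neutrophil markers summed to 33.5 to 384 RPKM in YC livers and 41.1 to 157 RPKM in vehicle livers (3 of 6 genes higher, 0 lower), and erythroid markers to 4.17 to 474 RPKM in YC livers and 63.2 to 1265 RPKM in vehicle livers (0 of 5 higher, 2 lower). Lymphocyte markers summed to 2.31 to 6.53 RPKM in YC livers and 3.53 to 19.4 RPKM in vehicle livers (0 of 5 higher, 3 lower). Of 5 bile duct markers 2 were higher and 0 lower, of 6 stellate markers 2 and 0, of 7 macrophage markers 1 and 1, and of 6 endothelial markers 1 and 2. Over all genes 44.6% were higher and 6.14% lower, or 18.2% and 16.7% after median-ratio scaling. After that scaling the marker counts were 0 and 3 (hepatocyte), 2 and 0 (neutrophil), 0 and 2 (erythroid) and 0 and 3 (lymphocyte). For bile duct, stellate, macrophage and endothelial markers they were 0 and 0, 1 and 0, 1 and 3, and 0 and 3. The part of these levels in the P450 differences was not tested, and in bulk RNA fewer hepatocytes and less RNA per hepatocyte cannot be told apart.

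Members known as receptor targets in mouse liver did not move as 1 group. Of 6 tested CAR targets, 0 were higher and 4 were lower in YC minus vehicle (Cyp2c29, Cyp2c37, Cyp2c50 and Cyp2c54), while Cyp2b10 and Cyp2c55 were not called. After median-ratio scaling the same 4 were lower. Over all genes 44.6% were higher and 6.14% lower, or 18.2% and 16.7% after that scaling. Of the PXR targets, Cyp3a11 was lower and Cyp3a13 was not called, and of the aryl hydrocarbon receptor targets Cyp1a1 was higher and Cyp1b1 was not called. In vehicle minus D0, 2 of the 6 CAR targets were higher (Cyp2b10 and Cyp2c55) and 2 lower (Cyp2c29 and Cyp2c37), Cyp3a11 was higher and Cyp3a13 lower, and Cyp1a1 and Cyp1b1 were both higher. Over all genes 28.2% were higher and 29.9% lower, so the CAR counts lie near these shares. With the presence of Y-linked transcripts as a covariate, Cyp2c29 (0.18, adjusted p = 0.681), Cyp1a1 (1.80, adjusted p = 0.0999) and Cyp1b1 (0.41, adjusted p = 0.413) were not called in vehicle minus D0. With median-ratio scaling Cyp2b10 was not called (0.69, adjusted p = 0.0530), which left 1 CAR target higher.

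Summed over the 70 members, RPKM came to 13107 ± 2597 in YC, 10235 ± 784 in vehicle livers and 13584 ± 1202 in D0 livers. Cyp2a4 and Cyp2a5 together made up 62.6% ± 15.9 of this in YC livers, 32.5% ± 10.9 in vehicle livers and 52.6% ± 3.90 in D0 livers. Without this pair, a sum formed after the values had been seen, the order changed, with 4555 ± 954 RPKM in YC livers, 6894 ± 1170 RPKM in vehicle livers and 6421 ± 509 RPKM in D0 livers. The Cyp2c members summed to 868 ± 281, 1886 ± 565 and 2751 ± 349 RPKM in YC, vehicle and D0 livers, and the Cyp3a members to 1899 ± 530, 2949 ± 809 and 1599 ± 209 RPKM.

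**Figure D3:**
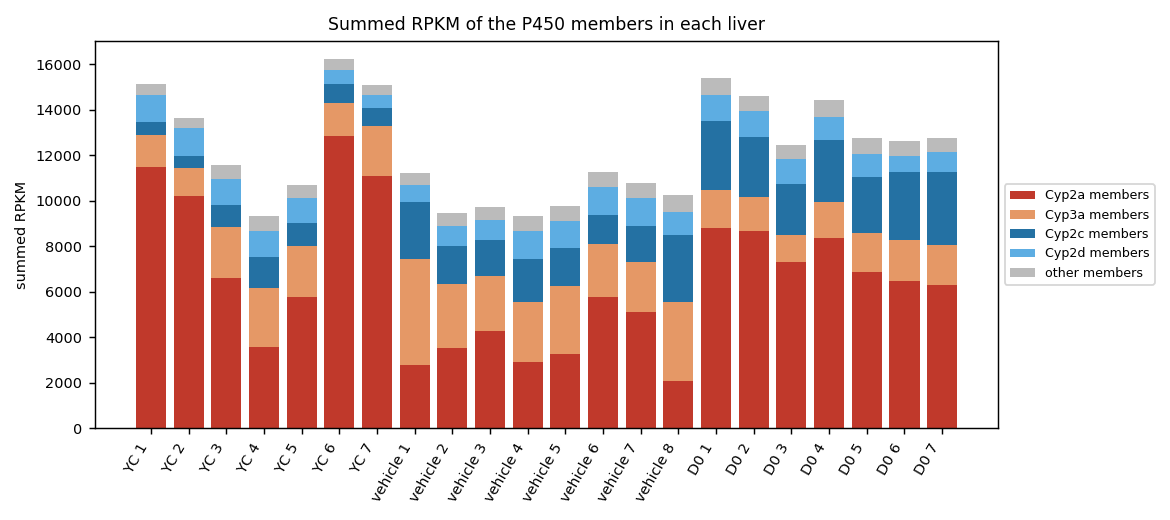
Summed RPKM of the 70 P450 members in each liver, YC livers on the left, vehicle livers in the middle and D0 livers on the right, with bars split into Cyp2a, Cyp3a, Cyp2c, Cyp2d and other members. Cyp2a members take the largest part in YC and D0 livers. The Cyp2c part averages 868 RPKM in YC livers, 1886 RPKM in vehicle livers and 2751 RPKM in D0 livers.

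Vehicle livers were compared with D0 livers, a contrast of transplantation and 28 days without NTBC against the starting state. The male-biased Cyp4a12a and Cyp4a12b rose furthest, over D0 levels near 0, Cyp2c55, Cyp2d9 and Cyp3a11 also rose, and the female-biased Cyp2b13, Cyp3a44, Cyp2c69 and Cyp3a16 fell furthest. Of the 4 members listed as male-biased, 3 rose and 1 fell. The fallen one was the low Cyp2u1, at -0.61 ± 0.23 (limma adjusted p = 0.0240). Of the 54 tested members, 12 rose and 19 fell (22.2% and 35.2%), beside 28.2% and 29.9% of all genes. The median log2 fold change was -0.10 over the tested members and 0.00 over all genes. Vehicle livers lay above all D0 livers for 8 members and below them for 5, beside 11.2% and 11.7% of all genes. All vehicle livers and no D0 liver held Y-linked transcripts, so the sex of the cells and the group cannot be told apart here. With the presence of Y-linked transcripts as a covariate, which draws on YC livers alone to separate them, calls became fewer over the whole table. Of all 12537 genes 1570 were then called higher and 2182 lower, against 3535 and 3743 without it. Among members 6 were called higher and 7 lower. Cyp4a12a, Cyp4a12b, Cyp2c55, Cyp3a11 and Cyp2b13 were among these, but Cyp2d9, Cyp2u1, Cyp3a44, Cyp2c69 and Cyp3a16 were not. In neutrophil, macrophage, bile duct and erythroid marker lists 6 of 6, 6 of 7, 4 of 5 and 5 of 5 tested genes were higher in vehicle than in D0 livers and 0 were lower. Of 6 stellate markers 4 were higher and 1 lower, of 6 endothelial markers 2 and 1, of 5 lymphocyte markers 2 and 0, and of 7 hepatocyte markers 1 and 1. Their part in the P450 differences was not tested.

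Cyp4a12a, the male-specific arachidonic acid hydroxylase of mouse liver and kidney, had 17.6 to 102 RPKM in vehicle livers (median 30.5) and 0.0241 to 0.411 RPKM in D0 livers (median 0.0939). The groups were far apart, and the log2 value was 5.90 ± 0.31 (limma adjusted p = 1.54e-12), a scale that understates the change of a gene this low in D0 livers. Its copy Cyp4a12b, with 98.6% identical coding sequence, had 6.80 to 28.8 RPKM in vehicle livers (median 10.4) and 0 to 0.126 RPKM in D0 livers (median 0.0314), for a log2 fold change of 4.44 ± 0.29 (adjusted p = 5.02e-11). Cyp2d9 had a log2 fold change of 1.81 ± 0.28 (adjusted p = 1.10e-05), with all vehicle livers above all D0 livers. YC livers held 19.1 to 51.0 RPKM of Cyp4a12a and 7.02 to 32.8 RPKM of Cyp4a12b, also in YC 4 to YC 7, which lacked Y-linked transcripts as D0 livers did. Cyp4a12a was 19.1, 21.8, 51.0 and 34.1 RPKM in YC 4, YC 5, YC 6 and YC 7. Neither gene was called in YC minus vehicle, at -0.21 ± 0.31 and 0.38 ± 0.29. Of their 100-base transcript windows, 35.8% and 36.2% occur in another P450 gene, so the division of reads between these copies is uncertain.

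**Figure D4:**
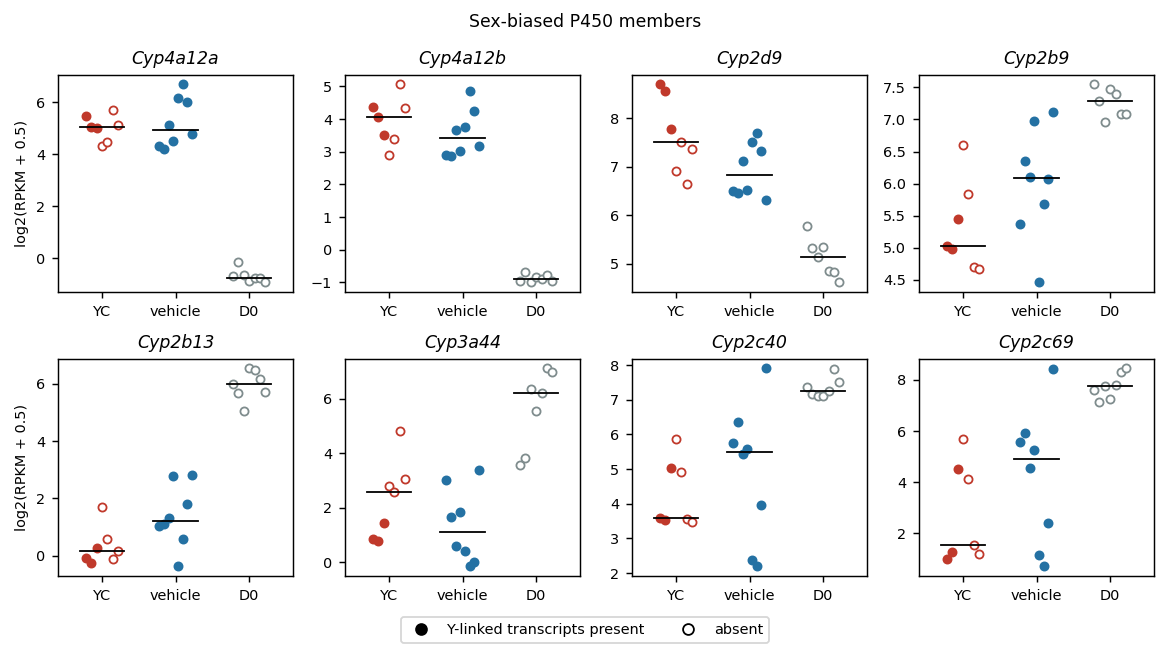
Log2 of RPKM + 0.5 for 8 sex-biased P450 members in each liver (points) with the group median (line), YC livers on the left, vehicle livers in the middle and D0 livers on the right. Filled points are livers with at least 1 RPKM of Y-linked transcripts and open points are livers below that. The YC livers without Y-linked transcripts hold 19.1 to 51.0 RPKM of Cyp4a12a, far above the D0 livers at 0.0241 to 0.411 RPKM.

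Of the 10 members listed as female-biased, 9 were lower in vehicle than in D0 livers and none was higher, with a median log2 fold change of -2.45, beside 29.9% of all genes lower. With the presence of Y-linked transcripts as a covariate, the calls over all genes numbered 3752 instead of 7278. Among the 10, only Cyp2b13 was still called (-3.94, adjusted p = 0.000299), and 8 calls ended. Those values stayed negative, between -2.65 for Cyp2c69 (adjusted p = 0.268) and -0.18 for Cyp2a22 (adjusted p = 0.853). Cyp2b13 had 0.273 to 6.50 RPKM in vehicle livers (median 1.84) and 32.4 to 91.9 RPKM in D0 livers (median 63.5), with no overlap and a log2 difference of -4.56 ± 0.38 (limma adjusted p = 2.86e-09). Cyp3a44 had 0.406 to 10.01 RPKM in vehicle livers (median 1.84) and 11.5 to 137 RPKM in D0 livers (median 73.3), again with no overlap, for -4.30 ± 0.69 (adjusted p = 2.63e-05). Cyp2c69 had 1.13 to 340 RPKM in vehicle livers (median 30.4) and 139 to 349 RPKM in D0 livers (median 214), for -3.51 ± 0.97 (adjusted p = 0.00435). Vehicle 8 at 340 RPKM stood within the D0 range, and without it the value was -4.10. Cyp3a16, known from fetal and female liver, had 0.0461 to 33.5 RPKM in vehicle livers (median 2.599) and 6.12 to 107 RPKM in D0 livers (median 49.3), for -3.39 ± 0.91 (adjusted p = 0.00346). Vehicle 5, vehicle 6 and vehicle 7 were the lowest livers for Cyp3a16 and Cyp2c69, and without them the values were -1.84 (adjusted p = 0.0541) and -1.81 (adjusted p = 0.0606). Those livers also held the most Cyp4a12a, at 70.8, 102 and 64.0 RPKM, and the lowest Y-linked level among vehicle livers, at 6.03, 8.86 and 5.55 RPKM.

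The remaining female-biased members behaved less evenly. Cyp2c40 had 4.07 to 239 RPKM in vehicle livers (median 44.8) and 138 to 236 RPKM in D0 livers (median 152), for a log2 difference of -2.40 ± 0.65 (limma adjusted p = 0.00334). Vehicle 8 alone reached the D0 range, and without vehicle 5, vehicle 6 and vehicle 7 the value was -1.14 (adjusted p = 0.0286). Cyp2b9 had 21.5 to 138 RPKM in vehicle livers (median 67.3) and 124 to 187 RPKM in D0 livers (median 155), for -1.25 ± 0.32 (adjusted p = 0.00180), with vehicle 4 and vehicle 8 inside the D0 range. Cyp3a41a and Cyp3a41b, which share 99.9% of their coding sequence and cannot be told apart by most reads, were called at -2.49 ± 1.04 and -1.86 ± 0.75 (adjusted p = 0.0458 and 0.0403). Both calls ended when any of D0 3 to D0 7 or vehicle 3 to vehicle 7 was left out, and that of Cyp3a41a also without YC 3, YC 5, YC 6 or YC 7, at adjusted p up to 0.0953 (Cyp3a41a) and 0.0820 (Cyp3a41b). D0 1 and D0 2 held only 4.08 and 2.69 RPKM of Cyp3a41a beside 35.7 to 70.9 RPKM in the other D0 livers. Cyp2a22 was called at -1.02 ± 0.37 (adjusted p = 0.0229), and not without D0 5, vehicle 5 or vehicle 6 (adjusted p up to 0.0518). Cyp2a4 was the member of the list that was not called (-0.36 ± 0.27). In YC minus vehicle, 1 of the 10 was higher (Cyp2a4) and 2 were lower (Cyp2a22 and Cyp2b13), beside 44.6% and 6.14% of all genes. After median-ratio scaling 1 was higher and 3 were lower, with Cyp2b9 added, beside 18.2% and 16.7% of all genes. YC 4 to YC 7, without Y-linked transcripts, held 0.429 to 2.76 RPKM of Cyp2b13, below the D0 range.

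Other differences between vehicle and D0 livers concerned inducible and abundant members. Cyp2c55 had 10.7 to 36.4 RPKM in vehicle livers (median 16.7) and 2.57 to 3.90 RPKM in D0 livers (median 3.31), with no overlap and a log2 difference of 2.44 ± 0.26 (limma adjusted p = 6.93e-08). Cyp3a11 rose by 1.48 ± 0.22 (adjusted p = 6.94e-06), again with no overlap, and Cyp1a1 by 1.68 ± 0.45 (adjusted p = 0.00276). Cyp2g1 and Cyp4f16 rose by 1.38 ± 0.26 (adjusted p = 9.33e-05) and 1.06 ± 0.19 (adjusted p = 5.75e-05). With the presence of Y-linked transcripts as a covariate, Cyp1a1, Cyp2g1 (0.16, adjusted p = 0.759) and Cyp4f16 (0.24, adjusted p = 0.531) were not called. In the opposite direction, Cyp2c37 fell by 2.93 on the log2 scale (adjusted p = 1.59e-07), with every vehicle liver below every D0 liver, and Cyp2a5 fell by 1.44 (adjusted p = 0.000149), also with no overlap. Cyp2b10 was called higher at 0.68 ± 0.28 (adjusted p = 0.0412), a call that ended when any of 9 single libraries was left out (D0 1, D0 2, D0 3, D0 7, vehicle 2, vehicle 3, vehicle 4, vehicle 7 or vehicle 8, adjusted p up to 0.103). Cyp3a13 was called lower at -0.62 ± 0.25 (adjusted p = 0.0348), a call that ended without any of 7 single libraries (D0 1, D0 2, D0 6, vehicle 2, vehicle 3, vehicle 4 or vehicle 7, adjusted p up to 0.0713). Cyp4f18, which inactivates leukotrienes in mouse neutrophils and was chosen after its values were seen, had 3.02 ± 0.933 RPKM in vehicle livers and 0.706 ± 0.206 RPKM in D0 livers. The summed neutrophil markers had medians of 54.4 RPKM in vehicle livers and 9.03 RPKM in D0 livers, and their part in the level of Cyp4f18 was not tested.

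YC livers were also compared with D0 livers. These comparisons share their livers pairwise, so the values are given side by side and not as further support. Of the 54 tested members, 13 were higher and 23 lower in YC than in D0 livers, beside 41.2% and 12.3% of all genes. With median-ratio scaling the member counts were 11 and 29, beside 25.8% and 28.6% of all genes. Cyp1a1 differed by 4.80 in YC minus D0, 3.12 in YC minus vehicle and 1.68 in vehicle minus D0. Cyp2c37 was lower at each step, at -4.97, -2.04 and -2.93 in the same order. Cyp2a5 had values of -0.09 (adjusted p = 0.803), 1.35 and -1.44, and its mean was 5967 ± 2228 RPKM in YC and 5964 ± 953 RPKM in D0 livers. Cyp3a11 had 0.48 (adjusted p = 0.0781), -0.999 and 1.48, and its first value was called when YC 1, YC 2 or YC 6 was left out (adjusted p down to 0.0298). Cyp2c50 had -2.38, -3.21 and 0.83, and the last was not called (adjusted p = 0.0900) except without YC 4 (adjusted p = 0.0451) or without both YC 6 and YC 7 (adjusted p = 0.0328). Cyp4f16 and Cyp2g1 were higher in all of them, at 1.93 and 2.77 in YC minus D0.

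Genes that serve or control the P450 set were counted beside it, against 44.6% of all genes higher and 6.14% lower in YC minus vehicle, or 18.2% and 16.7% after median-ratio scaling. Of 6 redox partners, 1 was higher in YC than in vehicle livers and 0 were lower, and this was Por, the reductase that feeds electrons to microsomal P450 enzymes, with 238 ± 54.3 RPKM in YC and 99.2 ± 18.0 RPKM in vehicle livers (log2 fold change 1.24 ± 0.15, limma adjusted p = 1.60e-06). Por stayed called after median-ratio scaling, at 0.89, where 1 of the 6 partners was also called lower. Of 10 genes of heme synthesis and breakdown, 4 were higher and 1 lower, or 2 and 4 after median-ratio scaling. Hmox1, which degrades heme, had 494 ± 184 RPKM in YC and 92.3 ± 35.9 RPKM in vehicle livers, beside 883 ± 74.3 RPKM in D0 livers, and Urod, a heme synthesis enzyme, was lower in YC than in vehicle livers at -0.26 ± 0.10 (adjusted p = 0.0433). Among 10 tested xenobiotic receptors and partners 2 were higher and 0 lower, or 1 and 1 after scaling, led by Ahr, the receptor that acts on Cyp1a1, with 13.7 ± 3.85 RPKM in YC and 7.62 ± 3.95 RPKM in vehicle livers (0.88 ± 0.23, adjusted p = 0.00261). Among 14 hepatocyte transcription factors 5 were higher and 0 lower, led by Nr5a2 at 0.56 ± 0.12 (adjusted p = 0.000449), but after median-ratio scaling 0 were higher and 2 lower.

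In the growth hormone axis, which sets the sex bias of many members, 2 of 9 genes were higher and 2 lower in YC than in vehicle livers, or 1 and 2 after scaling. Ghr, the growth hormone receptor, had 38.1 ± 18.5 RPKM in YC and 87.7 ± 20.5 RPKM in vehicle livers (log2 fold change -1.28 ± 0.20, limma adjusted p = 3.00e-05), and its kinase Jak2 was higher at 0.98 ± 0.15 (adjusted p = 2.51e-05). In vehicle minus D0 only 1 of the 9 genes was higher and 1 lower, beside 28.2% and 29.9% of all genes. These were Igf1, the hormone made under this axis, at 0.86 ± 0.22 (adjusted p = 0.00162) and Cux2, a female-biased repressor, at -1.54 ± 0.36 (adjusted p = 0.000829). Of 12 other enzymes that oxidize or hydrolyse drugs, 6 were higher and 1 lower in YC than in vehicle livers, or 3 and 2 after scaling, led by Aldh3a2 (0.92 ± 0.15, adjusted p = 3.33e-05) and Ephx2 (-0.54 ± 0.12, adjusted p = 0.000739). In vehicle minus D0, 1 was higher and 10 were lower, beside 28.2% and 29.9% of all genes, led by Fmo5 (0.39 ± 0.15, adjusted p = 0.0319) and Aox1 (-2.65 ± 0.14, adjusted p = 1.44e-12). Of the 7 P450 genes that the symbol rule left out, 2 were higher and 3 lower in YC than in vehicle livers, led by Cyp2s1 (3.62 ± 0.34, adjusted p = 2.61e-07) and Cyp2e1 (-1.45 ± 0.31, adjusted p = 0.000548).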

How the data were processed

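Polyadenylated RNA of 22 livers was sequenced after TRIzol extraction, per the labels' protocols. The authors deposited 1 table of RPKM values with a column per library. TopHat 1.4.1, Cufflinks 1.3.0 and the build mm10 are listed without a role, per the submitters' processing notes. The sources used here do not give the annotation, the strand setting or the handling of reads shared by copies, so values of near-identical or overlapping genes are uncertain. Groups came from the sample titles.

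Of 18716 rows, the 12537 that reached 0.5 RPKM in 7 or more libraries were kept. Their log2(RPKM + 0.5) values were fitted over 22 libraries and 3 groups, without covariates, by limma 3.58.1 with the trend and robust options (statmod 1.5.0, R 4.3.3). Fold changes on this scale understate those of low genes. P-values were two-sided, adjusted by Benjamini-Hochberg over all genes kept, and called under 0.05. The fit was tested on simulated data. No count test was run, since no counts were used, and precision comes from the spread between libraries. Depth was estimated from the steps of low values over 2706 genes with a single transcript.

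Members, lists and rules were chosen with earlier results of these data known. Named were the 6 largest called rises and falls of YC minus vehicle and the 4 of vehicle minus D0 at a mean of at least 5 RPKM in a compared group, the 10 most abundant members, the 4 most abundant not called, sex-biased and receptor-target members at that mean, and in each other list the called gene with the smallest adjusted p. Exceptions are marked. Gene coordinates come from GENCODE M21, promoters from RefSeq (GRCm38.p6, 60 of 70 members matched), and coding identity was computed on the longest open reading frames. Alternatives covered pseudocount, filter, scaling, weights, covariate, replicate block and libraries left out. Other steps used Python 3.11.15, numpy 2.4.6, pandas 2.3.3 and matplotlib 3.10.9.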

Additional observations from a re-analysis of the deposited data

Results flagged for a closer look

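In each group of 7 or 8 livers the gap between the most extreme liver and its nearest neighbour was compared, on the log2(RPKM + 0.5) scale, with the range of the group, using Dixon's 95% critical values. Of 102 groups of named members, 5 held such a liver, and chance alone gives about 1 in 20. Vehicle 1 stood apart as the lowest vehicle liver for Cyp2b10 at 12.1 RPKM and as the highest for Cyp3a13 at 125 RPKM. D0 2 stood apart as the highest D0 liver for Cyp4a12a at 0.411 RPKM and for Cyp4a32 at 17.0 RPKM. D0 3 stood apart as the highest D0 liver for Cyp4f16 at 4.95 RPKM.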

How the results depend on the processing

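The tested members called in YC minus vehicle (12 higher, 18 lower) numbered 10 to 12 higher and 15 to 19 lower when single libraries were left out. Counts for vehicle minus D0 (12 and 19) ranged from 11 to 14 and 15 to 19, and for YC minus D0 (13 and 23) from 12 to 15 and 20 to 26. The higher count of YC minus vehicle came to 7 with median-ratio scaling and to 7 where a mean of at least 5 RPKM was asked, which leaves fewer genes to test. For vehicle minus D0 the Y-linked covariate gave 6 higher and 7 lower, 13 in all, and with median-ratio scaling added, after seeing the data, 7 and 7, 14 in all. Calls over all genes came to 3752 and 4151 in these settings, beside 7278 in the main fit. The cause was not tested. No value for libraries with Y-linked transcripts alone exists against D0 livers, none of which held them. Called values that changed sign were Cyp3a25 in YC minus vehicle with median-ratio scaling without YC 6 and YC 7 (-0.016), and in vehicle minus D0 Cyp2c29 (0.18, and 0.23 with scaling) and Cyp4a32 (-0.27, and -0.22 with scaling) with the Y-linked covariate. A further 47 values of 14 uncalled results changed sign and stayed uncalled. With the replicate block, 11 members were called higher and 16 lower in YC minus vehicle, 12 and 19 in vehicle minus D0 and 13 and 22 in YC minus D0. Same-numbered livers correlated between -0.39 and 0.23 in their deviations, so the numbers were not taken to pair the samples.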
